A study of Mus musculus with 8 samples.

Results

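Aggrecan (Acan) and 9 genes of the same matrix, Vcan, Bcan, Ncan, Hapln1, Hapln3, Has2, Has3, Cd44 and Hspg2, were followed through 4 mouse models of endometrial cancer, each sequenced as 2 bulk polyA libraries. These 10 genes were taken by symbol from the 24419 genes counted, and all 10 had a row. Acan was chosen by its measured high level in a TPMPik3r1 library, so its values in that model are a description and are not tested. Of the 10 genes, 9 passed the filter on low counts, and Ncan did not.

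TPM, TPMPik3ca, TPMPik3r1 and TPK tumors all started from uterus organoids of CAG-Cas9-EGFP mice that were edited by viral vectors and transplanted into the uterus of nude mice. The edits of all 4 models include an sgRNA against Trp53. TPM, TPMPik3ca and TPMPik3r1 also overexpressed Myc, TPMPik3ca carried in addition a mutant Pik3ca cDNA, and TPMPik3r1 an sgRNA against Pik3r1. No Myc was introduced in TPK. The study's figure legends speak of 2 mice per model, and the labels give no age of the animals. The labels name the tissue as tumor organoids, whereas the methods describe tumor tissue with its host cells.

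The lecticans are large chondroitin sulfate proteoglycans that bind hyaluronan at one end. In the best known tissue of aggrecan, cartilage, many aggrecan molecules sit on one hyaluronan chain, each fixed by a link protein, and their charged sugar chains hold water and resist compression. Versican does the same in loose connective tissue and around tumors, brevican and neurocan in brain. Hyaluronan itself is spun out at the plasma membrane by hyaluronan synthases, and cells hold it through receptors such as CD44. Perlecan, the product of Hspg2, is the heparan sulfate proteoglycan of basement membranes.

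Total counts lay between 15748396 and 26943611 per library, and 3 counts, used as the floor of detection, equaled 0.116 to 0.198 CPM (counts scaled to a common library size by the TMM factors of edgeR). Intervals and floors cover counting error only. The libraries of TPMPik3r1 stood furthest apart: 17% of the 15875 genes tested differed more than 4-fold between them, against 4.72% in TPM, 6.12% in TPK and 8.14% in TPMPik3ca. Values of TPMPik3r1 against TPM are therefore given also without one or the other of its libraries where this moved a value by over 1.5 times or changed a call. The tissue label was checked against epithelial markers, and these were largely absent from both Pik3-altered models. The adhesion gene Epcam lay at 313 to 527 CPM in the libraries of TPM and TPK, at 5.0 and 3.12 in TPMPik3ca and at 0.81 and 0.39 in TPMPik3r1. In such bulk libraries, fewer cells of a type and less RNA per cell cannot be told apart.

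The lectican and link protein genes lie as neighbors in the mouse genome, in 4 pairs with 0 protein-coding genes between (GRCm38, GENCODE M21). Acan (ENSMUSG00000030607.7) occupies chr7:79053483-79115099 on the plus strand and meets Hapln3 (chr7:79115102-79131018, minus strand) tail to tail at a distance of 0.002 kb. Hapln1 (chr13:89539796-89611652, plus strand) lies 43.659 kb from Vcan (chr13:89655312-89742509, minus strand), Hapln2 21.519 kb from Bcan (chr3:87987531-88000230, minus strand), and Hapln4 2.222 kb from Ncan (chr8:70093085-70120873, minus strand). The start regions of 3 lecticans and of Hapln3 are shown because Acan and Hapln3, next to each other, had levels that went apart. Each line gives the 250 bases before the RefSeq start of the gene (GRCm38.p6), 5′ to 3′ on the gene's strand, and capitals mark a match to any of the motifs searched. The windows are chr7:79052976-79053225 (plus strand) for Acan, chr13:89742513-89742762 (minus strand) for Vcan, chr3:88000357-88000606 (minus strand) for Bcan and chr7:79131019-79131268 (minus strand) for Hapln3.
Acan: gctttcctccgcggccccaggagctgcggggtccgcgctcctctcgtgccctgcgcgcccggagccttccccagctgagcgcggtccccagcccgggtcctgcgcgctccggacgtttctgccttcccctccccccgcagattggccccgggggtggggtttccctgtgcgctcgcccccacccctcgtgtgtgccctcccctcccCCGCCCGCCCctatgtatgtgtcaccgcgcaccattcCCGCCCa
Vcan: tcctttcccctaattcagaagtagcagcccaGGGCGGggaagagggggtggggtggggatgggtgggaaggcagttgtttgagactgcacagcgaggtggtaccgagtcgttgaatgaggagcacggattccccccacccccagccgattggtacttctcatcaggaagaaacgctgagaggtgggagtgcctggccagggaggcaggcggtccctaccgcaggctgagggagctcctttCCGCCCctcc
Bcan: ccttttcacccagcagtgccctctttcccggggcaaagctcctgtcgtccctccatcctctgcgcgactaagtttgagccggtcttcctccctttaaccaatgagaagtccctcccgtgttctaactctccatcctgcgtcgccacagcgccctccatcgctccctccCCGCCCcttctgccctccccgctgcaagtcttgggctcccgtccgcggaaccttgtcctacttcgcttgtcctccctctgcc
Hapln3: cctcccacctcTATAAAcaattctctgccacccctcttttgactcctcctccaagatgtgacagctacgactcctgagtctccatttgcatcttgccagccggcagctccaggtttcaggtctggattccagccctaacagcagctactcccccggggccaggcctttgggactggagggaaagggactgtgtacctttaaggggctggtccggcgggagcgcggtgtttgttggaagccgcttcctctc

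These motifs were searched on both strands: the TATA box (letters TATAAA), the GC box of Sp1 (letters GGGCGG), the core of SOX factor sites (letters ACAAAG), the E-box of Myc (letters CACGTG), the site of AP-1 (letters TGANTCA) and the site of GATA factors (letters AGATAA). The Acan window held 3 matches to GGGCGG, 2 of them overlapping and all on the opposite strand, and no match to the other motifs. Its GC content was 74.4%, with 26 CpG, at percentile 95.8 of 32851 RefSeq promoters with a median of 52.4%. Vcan held 2 matches to GGGCGG and Bcan 1, with 62.4 and 62.0% GC, whereas Hapln3 held 1 TATAAA at 58.0% GC. Of all promoters, 32.7% held GGGCGG and 12.4% TATAAA. Those with ACAAAG made up 16.5%, with CACGTG 6.02%, with TGANTCA 6.75% and with AGATAA 9.99%. RefSeq windows were matched for 8 of the 10 genes. Among the rest, Hspg2 held 5 GGGCGG at 70.0% GC, Ncan 1 TATAAA and 1 GGGCGG, Cd44 1 AGATAA and Hapln1 none. A match describes the letters of the window and nothing about the factor.

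Acan, the aggrecan core protein, was read 100 and 106 times in TPM, 568 and 57 times in TPMPik3ca, 21620 and 580 times in TPMPik3r1, and 0 and 0 times in TPK. In CPM these were 6.02 and 6.06, 36.0 and 3.17, 837 and 32.2, and 0 and 0. The TPM libraries were nearly the same, 1 TPMPik3ca library stood above and the other below them, and both TPMPik3r1 libraries stood above TPM. Replicate 2 of TPMPik3r1 was nevertheless lower than replicate 1 of TPMPik3ca, so those models overlapped. The high level for which the gene was picked was that of replicate 1 of TPMPik3r1, which was 26.0-fold above replicate 2. The ratio of the libraries was 11.3 in TPMPik3ca and 1.01 in TPM.

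Since TPK had no Acan count, folds against it are lower bounds set at 3 counts per library. On the mean of the libraries of each model, Acan was at least 32.7-fold higher in TPM, at least 106-fold higher in TPMPik3ca and at least 2355-fold higher in TPMPik3r1 than in TPK, the last as a description. These are no bounds for single libraries, which differed 11.3-fold in TPMPik3ca and 26.0-fold in TPMPik3r1. The lower TPMPik3ca library, at 3.17 CPM, was below both TPM libraries. The fit over all 8 libraries gave the TPM comparison an unadjusted p of 0.0290 and an adjusted p of 0.683 in edgeR, with adjusted p values of 0.220 to 1 under the other edgeR settings, whereas DESeq2 gave an adjusted p of 0.00208. TPMPik3ca exceeded TPM by a log2 fold change of 1.69 ± 1.59 (SE; adjusted p = 0.564, edgeR), which turned to -0.91 without replicate 1 of TPMPik3ca. Relative to TPM, the described log2 fold change of TPMPik3r1 was 6.17, and it was 2.42 without replicate 1 and 7.11 without replicate 2 of TPMPik3r1.

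**Figure D1:**
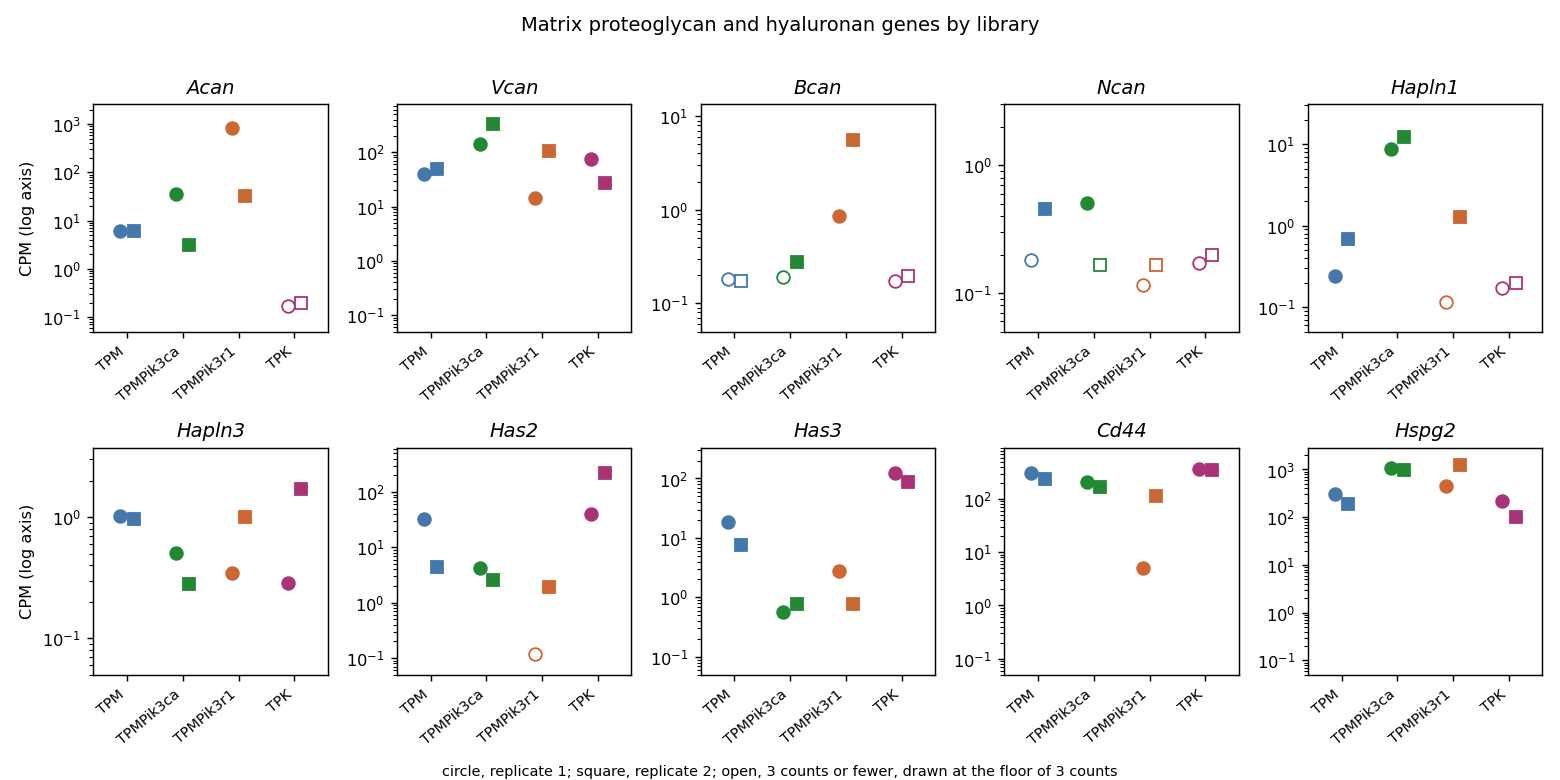
Level of each of the 10 genes in each library, in CPM on a log axis whose upper end differs between panels, by model; circles are replicate 1, squares replicate 2, and open symbols stand for 3 counts or fewer, drawn at the floor of 3 counts. Acan reached 837 CPM in replicate 1 of TPMPik3r1 and was open in both TPK libraries, while Has3 was highest in TPK, at 126 and 87.7 CPM.

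The share of Acan in the lectican counts varied between libraries. In replicate 1 of TPMPik3r1, the library for which Acan was picked, it took 98.2% of 22019 counts, a share that follows from that choice and is a description. Acan took 22.8% (95% Wilson interval 21.2 to 24.5%) in replicate 2 of TPMPik3r1. It took 13.2% (11 to 15.8%) and 10.8% (9.01 to 12.9%) in TPM, and 20.4% (19.0 to 22.0%) and 0.967% (0.747 to 1.25%) in TPMPik3ca. In TPK it was 0 of 1334 counts, which allows a share of up to 0.225%, and 0 of 418, which allows up to 0.718%. In 7 of the 8 libraries Vcan held most of the counts. These shares compare counts, and the joined exons of Vcan (14462 bases) are longer than those of Acan (7469 bases). Per kilobase, Acan was at 112 and Vcan at 1.0 CPM in replicate 1 of TPMPik3r1, and Acan at 4.32 and Vcan at 7.16 CPM in replicate 2.

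**Figure D2:**
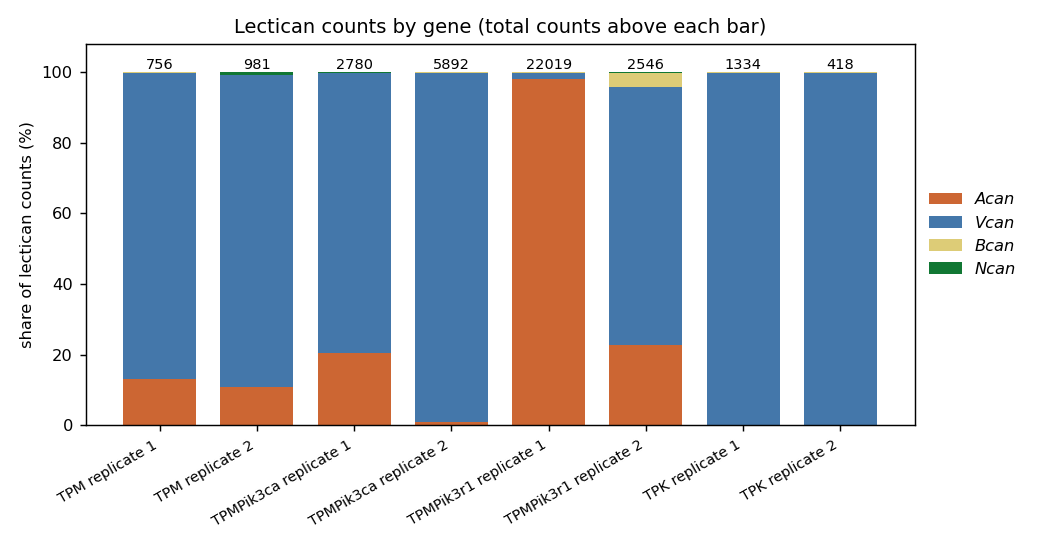
Share of the 4 lectican genes in the lectican counts of each library, in percent, with the total of those counts above each bar. Acan held 98.2% in replicate 1 of TPMPik3r1 and at most 22.8% in the other libraries, where Vcan held most.

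Vcan, the versican core protein, lay at 39.4 and 49.5 CPM in TPM, at 140 and 324 in TPMPik3ca, at 14.5 and 103 in TPMPik3r1 and at 76.1 and 27.5 in TPK. Both TPMPik3ca libraries were above all the others, and the TPMPik3r1 library with the most Acan had the least Vcan. The log2 fold change of TPMPik3ca over TPM was 2.38 ± 0.96 (SE), with an unadjusted p of 0.0429 and an adjusted p of 0.211 in edgeR. In TPMPik3r1 against TPM it was 0.41 ± 0.91 (adjusted p = 0.836, edgeR), with 1.22 without replicate 1 and -1.61 without replicate 2 of TPMPik3r1.

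Bcan, the brevican core protein, was seen 22 and 101 times in TPMPik3r1 and 0 to 5 times in each of the other libraries. In CPM the TPMPik3r1 libraries had 0.85 and 5.61, and here replicate 2, not replicate 1, was the higher. Bcan passed the filter on low counts through TPMPik3r1 alone, so its log2 fold change over TPM, 5.62 ± 1.67 (SE), is a description with no test. It was 6.41 without replicate 1 and 3.71 without replicate 2 of TPMPik3r1. Ncan, the neurocan core protein, had 0 and 8 counts in TPM, 8 and 2 in TPMPik3ca, 2 and 3 in TPMPik3r1 and 0 and 0 in TPK, too few for the test.

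The link protein genes had other orders of level than Acan. Hapln1, the cartilage link protein, lay at 0.24 and 0.69 CPM in TPM, at 8.68 and 12.2 in TPMPik3ca, at 0.08 and 1.28 in TPMPik3r1 and at 0.06 and 0 in TPK. Both TPMPik3ca libraries were higher than all others, including the one with little Acan. The log2 fold change over TPM was 4.47 ± 1.37 (SE; unadjusted p = 0.0145, adjusted p = 0.127, edgeR). It passed when replicate 1 or replicate 2 of TPMPik3r1 was left out of the shared fit (adjusted p = 0.0314 and 0.0326, edgeR), when only TPMPik3ca and TPM were fitted (0.0357) and in DESeq2 (0.00502).

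Hapln3, the link protein gene that adjoins Acan, had 17 and 17 counts in TPM, 8 and 5 in TPMPik3ca, 9 and 18 in TPMPik3r1 and 5 and 26 in TPK. In the library with 21620 Acan counts it had 9, and no model stood apart (adjusted p over the 4 models 0.713, edgeR). Whether the counts were made by strand is not given in the sources used here, so reads past the end of either gene could not be assigned to one of them. Of the remaining link protein genes, Hapln2 had 0 to 4 counts per library and Hapln4 0.54 to 1.20 CPM.

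Has3, the hyaluronan synthase of shorter chains, lay at 18.5 and 7.72 CPM in TPM, at 0.57 and 0.78 in TPMPik3ca, at 2.79 and 0.78 in TPMPik3r1 and at 126 and 87.7 in TPK. The order was TPK, TPM and then both Pik3-altered models, with no overlap between these levels, while the libraries of TPMPik3ca and TPMPik3r1 met at 0.78. Acan, picked for its level, is left out of the test across the 4 models. Among the other tested members only Has3 was called in this fit (adjusted p = 0.0102, edgeR), where 7.32% of all genes were called. Hapln1, Hspg2 and Has2 lay over the threshold at adjusted p values of 0.0575, 0.0826 and 0.0844 (edgeR). DESeq2 called 5 members, and Bcan, which passed the filter only through TPMPik3r1, was 1 of them. The share of 7.32% is that of edgeR and is no background for the DESeq2 count, so nothing is read from that count. Has3 fell by 4.26 on the log2 scale in TPMPik3ca against TPM (SE 0.76, adjusted p = 0.0373, edgeR). This call was lost when either library of TPK, TPM or TPMPik3ca was left out, with log2 fold changes of -4.77 to -3.48 and adjusted p values of 0.0586 to 0.199 in edgeR. In TPMPik3r1 against TPM the log2 fold change was -2.86 ± 0.70 (adjusted p = 0.0667, edgeR), or -4.06 without replicate 1 of TPMPik3r1 (adjusted p = 0.0402, edgeR).

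Between TPK and TPM, Has3 differed by 3.02 ± 0.69 on the log2 scale, with an unadjusted p of 0.00353 and adjusted p values of 0.653 in edgeR and 0.00463 in DESeq2. Against the mean of TPMPik3ca and TPMPik3r1, it was higher in TPK by 6.59 ± 0.61 (adjusted p = 0.00195, edgeR), and this held without any one library. The adjusted p values without 1 library lay between 0.00185 and 0.0194 in edgeR.

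Has2, the main synthase of long hyaluronan chains, lay at 32.4 and 4.35 CPM in TPM, at 4.31 and 2.62 in TPMPik3ca, at 0.08 and 1.89 in TPMPik3r1 and at 40.2 and 218 in TPK. Both TPK libraries were above all others and both TPMPik3r1 libraries below all others, and the TPM libraries differed 7.45-fold. TPK exceeded the mean of TPMPik3ca and TPMPik3r1 by 6.15 ± 1.24 on the log2 scale (adjusted p = 0.0227, edgeR). The adjusted p was 0.174 without replicate 2 of TPK, 0.0989 without replicate 1 of TPMPik3ca and 0.0926 without its replicate 2 (edgeR). The log2 fold change of TPMPik3r1 over TPM was -4.27 ± 1.57, with an unadjusted p of 0.0310 and an adjusted p of 0.168 in edgeR. Without replicate 1 of TPMPik3r1 it was -3.27 (adjusted p = 0.283, edgeR) and without replicate 2 it was -7.77 (adjusted p = 0.0745). Has1, the third synthase, had another order: 1.57 and 2.29 CPM in TPM, 16.6 and 31.4 in TPMPik3ca, 0.77 and 10.4 in TPMPik3r1, and 29.9 and 2.24 in TPK.

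Cd44, the hyaluronan receptor, lay at 306 and 241 CPM in TPM, at 206 and 171 in TPMPik3ca, at 4.99 and 115 in TPMPik3r1 and at 373 and 358 in TPK. TPK was highest, TPM next and TPMPik3r1 lowest without overlap, but the TPMPik3r1 libraries differed 23.1-fold, with the low one being that with the most Acan. The comparison with TPM gave -2.18 ± 1.14 on the log2 scale (adjusted p = 0.307, edgeR). Without replicate 2 of TPMPik3r1 it was -5.77 (adjusted p = 0.00446, edgeR) and without replicate 1 it was -1.24 (adjusted p = 0.0967). TPK against the mean of TPMPik3ca and TPMPik3r1 gave 1.78 ± 0.91 (adjusted p = 0.228, edgeR), and 1.31 or 3.57 without replicate 1 or replicate 2 of TPMPik3r1 (adjusted p = 0.0172 and 0.00137, edgeR).

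Hspg2, the perlecan gene (chr4:137468769-137570630, plus strand), lay at 309 and 191 CPM in TPM, at 1082 and 959.8 in TPMPik3ca, at 444 and 1265 in TPMPik3r1 and at 224 and 101 in TPK. All libraries of both Pik3-altered models were above all of TPM and TPK. The log2 fold changes over TPM were 2.03 ± 0.62 in TPMPik3ca (unadjusted p = 0.0140, adjusted p = 0.125, edgeR) and 1.77 ± 0.61 in TPMPik3r1 (unadjusted p = 0.0239, adjusted p = 0.146, edgeR), and DESeq2 gave adjusted p values of 0.0149 and 0.0385. The value of TPMPik3r1 was 2.34 without its replicate 1 (adjusted p = 0.0660, edgeR) and 0.83 without its replicate 2 (adjusted p = 0.368). In TPK it fell by 2.52 on the log2 scale against the mean of both models (SE 0.59, adjusted p = 0.0352, edgeR). This call was lost when any library of TPM, TPMPik3ca or TPK was left out (adjusted p of 0.0635 to 0.219, edgeR), when TPM was left out of the fit (0.0608) and when the replicate number was added as a block (0.0615). It held without either TPMPik3r1 library, with -2.80 without replicate 1 and -2.05 without replicate 2.

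**Figure D3:**
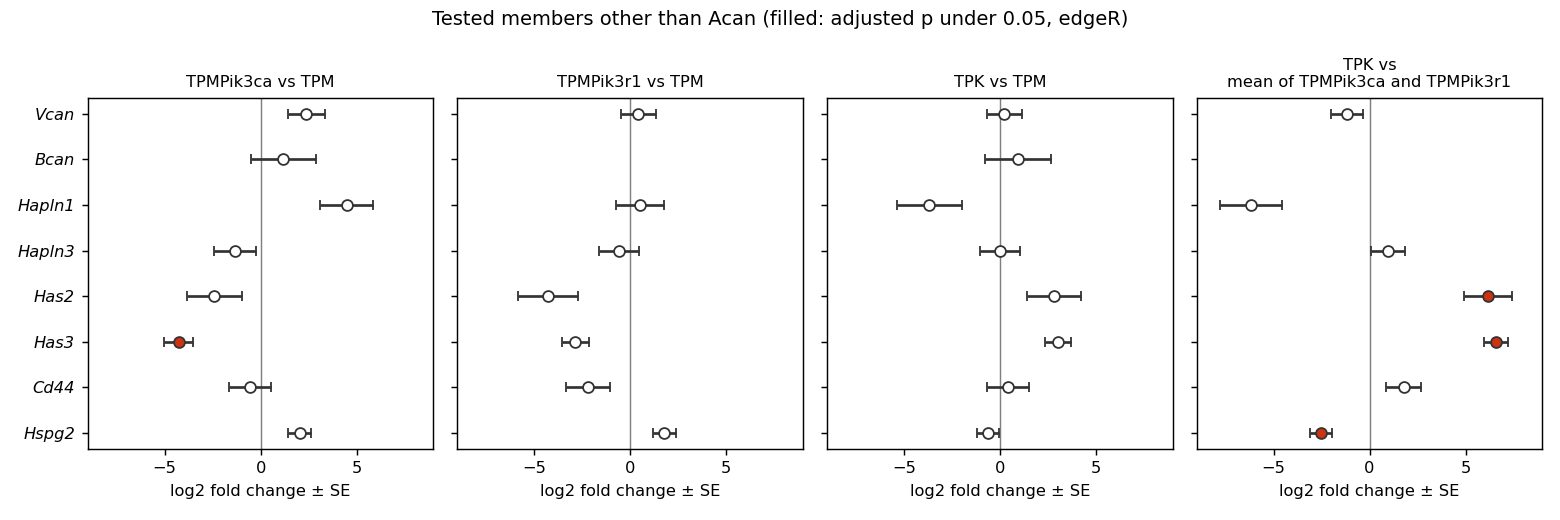
Log2 fold change with its SE, from the edgeR fit of all 8 libraries, for the 8 tested genes other than Acan in 4 comparisons; filled points had an adjusted p under 0.05, and Bcan is left out of the panels that TPMPik3r1 enters. Filled were Has3 in TPMPik3ca against TPM (-4.26), and Has3 (6.59), Has2 (6.15) and Hspg2 (-2.52) in TPK against the mean of TPMPik3ca and TPMPik3r1.

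Per kilobase of exon, the level of these genes ranked differently in each model. Cd44 led in TPM (40.3 ± 6.81 CPM per kb, SD, n = 2) and in TPK (53.9 ± 1.52), and Hspg2 led in TPMPik3ca (71.3 ± 6.02). In TPMPik3r1, Hspg2 (59.7 ± 40.6) and Acan (58.2 ± 76.2) were within their spread of each other. Has2 was at 30.4 ± 29.6 and Has3 at 16.7 ± 4.24 in TPK, next after Cd44 and not apart beyond their spread. Acan was at 0.809 ± 0.00406 in TPM and 2.62 ± 3.11 in TPMPik3ca.

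Counted over the 8 tested genes other than Acan, 0 rose and 1 fell in TPMPik3ca against TPM, where 0.466% of all genes rose and 3.02% fell. The median log2 fold change of the 8 was 0.33, against -0.01 for all genes. Without Bcan, which passed the filter only through TPMPik3r1, the median of the other 7 was -0.53, so its sign hung on Bcan. In the comparisons that TPMPik3r1 enters, Bcan was left out of the counts, which leaves 7 genes. Between TPMPik3r1 and TPM, 0 of the 7 rose and 0 fell in edgeR, where 1.08% of all genes rose and 4.5% fell (medians -0.57 and 0.03). At an unadjusted p under 0.05 (edgeR) there were 3, Has2, Has3 and Hspg2, beside 23.1% of all genes, and DESeq2 called the same 3, beside 17.5% of all genes. In TPK against the mean of TPMPik3ca and TPMPik3r1, 2 of the 7 rose and 1 fell, where 10.3% of all genes rose and 4.06% fell (medians 0.95 and 0.00). With a background of this size and so few genes, nothing is read from the share of members called. In TPK against TPM, edgeR called 0% of genes in either direction, with 1138 genes (7.17%) at an unadjusted p under 0.05 and 243 (1.52%) called by DESeq2, and of the members 1, Has3, was among both. In TPMPik3r1 against TPMPik3ca, edgeR again called 0% in either direction, with 1867 genes (11.8%) at an unadjusted p under 0.05 and 797 (4.86%) called by DESeq2. Of the 7 members 1, Hapln1 (log2 fold change -3.96), was among both. These comparisons share libraries, so their values are given side by side and are not independent of each other.

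Genes that work with these proteins were counted in lists. Of 29 genes that make chondroitin sulfate, the sugar of the lecticans, 0 rose or fell in TPMPik3ca against TPM (median 0.21). In TPMPik3r1 against TPM 1 was called, Xylt1, which starts the chain on the core protein. It lay at 2.83 and 2.0 CPM in TPM, at 15.3 and 12.7 in TPMPik3ca, at 26.8 and 13.5 in TPMPik3r1 and at 4.86 and 2.31 in TPK. Xylt1 rose in TPMPik3r1 by a log2 fold change of 3.06 ± 0.61 over TPM (adjusted p = 0.0385, edgeR; list median 0.16). The levels of TPMPik3ca and TPMPik3r1 overlapped, and between these models 0% of all genes were called, so a call against TPM in one of them does not set it apart from the other. In TPK against the mean of both models Xylt1 (-2.22) and the sulfotransferase gene Chst3 (-3.97) fell (list median -0.23). Of 11 tested proteases and inhibitors that act on aggrecan and versican, 0 were called in either comparison with TPM (medians 1.25 and 0.49). Mmp13, a collagenase that also cuts aggrecan, was higher in TPK than in the mean of both models (3.09 ± 0.71, adjusted p = 0.0343, edgeR; list median -0.93). Adamts1, the most abundant of that list, lay at 55.1 and 53.5 CPM in TPM, 308 and 242 in TPMPik3ca, 35.4 and 315 in TPMPik3r1, and 91.0 and 75.2 in TPK, and passed in none of the 5 comparisons between models.

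Of 19 tested genes of hyaluronan turnover and linkage, members left out, 0 were called in either comparison with TPM (medians 0.51 and 0.42). In TPK against the mean of both models, Uap1, which makes a sugar nucleotide for hyaluronan, and the hyaluronidase gene Tmem2 were higher (1.40 and 1.05; list median -0.33). Of 16 small leucine-rich proteoglycans, Ogn, which codes for osteoglycin, rose in both models. It lay at 20.6 and 6.18 CPM in TPM, 134 and 100.1 in TPMPik3ca, 135 and 192 in TPMPik3r1, and 8.57 and 6.06 in TPK. The log2 fold changes over TPM were 3.13 and 3.61 (adjusted p = 0.0427 and 0.0260, edgeR), beside list medians of 1.30 and 0.51, and the log2 fold change of TPK over the mean of both was -4.24. The 9 tested other chondroitin sulfate proteoglycans had 0 calls against TPM (medians 1.35 and 0.98). Ptprz1, a receptor phosphatase of that list, was at 0.32 and 0.45 CPM in TPMPik3ca and 0 and 2.72 in TPMPik3r1 against 21.8 to 43.1 in TPM and TPK, and was called in TPK against the mean of both (5.37; list median -0.56).

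Heparan sulfate proteoglycans other than perlecan moved both ways. Of 14 tested, 0 were called in TPMPik3ca against TPM (median 0.24). In TPMPik3r1 against TPM, Spock2, a testican, rose (3.88, adjusted p = 0.0431, edgeR) and Sdc1, the epithelial syndecan, fell by 3.26 (adjusted p = 0.0466, edgeR; list median 0.29). Spock2 was at 7.47 and 2.63 CPM in TPM, 70.4 and 24.2 in TPMPik3ca and 50.1 and 98.7 in TPMPik3r1. Against the mean of both models, TPK had more Sdc1 (3.32), Sdc4 (1.59) and Agrn (1.44), which codes for agrin, and less Spock2 (-6.18; list median -0.38). Sdc1 lay at 769 and 440.4 CPM in TPM, 122 and 68.1 in TPMPik3ca, 31.3 and 95.0 in TPMPik3r1, and 1024 and 521 in TPK.

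The basement membrane partners of perlecan split by laminin chain. Among the 21 tested, Lamb3, a chain of the laminin beneath stratified epithelium, fell in TPMPik3ca against TPM (-6.26, adjusted p = 0.0181, edgeR) and in TPMPik3r1 against TPM (-4.18, adjusted p = 0.0311, edgeR). In TPMPik3r1 Lama1 (5.97), Lamb1 (2.73), Lamc1 (1.96) and the laminin receptor gene Dag1 (1.14) rose, and the list medians were 0.62 and 1.23. Lamb1 and Lamc1 were above both TPM libraries in TPMPik3ca as well, Lamb1 at 286 and 189.9 CPM against 68.9 and 59.7, and Lamc1 at 484 and 548 against 142 and 146. Lama1, the chain of early embryonic basement membranes, lay at 251 and 52.9 CPM in TPMPik3r1 and at 0.82 to 4.88 in the other libraries. TPK against the mean of both had more Lamb3 (5.72) and Agrn, which is also in the list of heparan sulfate proteoglycans, and less Lamb1 (-2.59), Lamc1 (-2.45) and the nidogen gene Nid2 (-4.53), with a list median of -0.98. Col4a1, a collagen IV chain, had the highest mean level of the list and was not called.

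The list genes called in TPMPik3r1 against TPM were also fitted without either of its libraries, which was chosen after seeing the data. Without replicate 1 the calls of Xylt1 (2.48, adjusted p = 0.0815), Sdc1 (-2.67, 0.0890), Lamb1 (2.46, 0.0636) and Dag1 (1.14, 0.0665) were lost in edgeR. Without replicate 2 those of Spock2 (3.31, adjusted p = 0.0510) and Lamc1 (1.40, 0.0659) were lost in edgeR. Ogn, Lama1, Lamb3, Matn2, Trpv4 and Barx2 were still called whichever of the libraries was left out. In TPK against the mean of both, Uap1 (1.36, adjusted p = 0.0514) and Tmem2 (1.01, 0.0567) were lost in edgeR without replicate 1 and none of the named genes without replicate 2.

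In both Pik3-altered models against TPM, and in TPK against their mean, epithelial markers differed in the same direction as Has3, Sdc1 and Lamb3. Hspg2 went in the opposite direction in these comparisons. In the other comparisons the values were mixed. Between TPK and TPM the epithelial median log2 fold change was -0.02 and the log2 fold change of Has3 3.02. Mean Sdc1 was 773 CPM in TPK and 604 in TPM, and mean Lamb3 95.1 and 67.1. Between TPMPik3r1 and TPMPik3ca the epithelial median was -2.50, with Has3 at 1.41 and Hspg2 at -0.26. Mean Sdc1 was lower in TPMPik3r1, at 63.1 CPM against 94.9, and mean Lamb3 higher, at 3.68 against 0.87. None of these differences was called in edgeR, where 0% of all genes were called in these 2 comparisons. Of 10 epithelial markers, 8 fell in TPMPik3ca and 10 in TPMPik3r1 against TPM (8 without replicate 1 and 10 without replicate 2 of TPMPik3r1), and 10 were higher in TPK than in the mean of both models. Their sum lay between 3737 and 6395 CPM in TPM and TPK, between 25.9 and 79.5 in TPMPik3ca and at 6.81 and 28.0 in TPMPik3r1. All 10 were over the floor in TPM, TPK and TPMPik3ca and 7 in each TPMPik3r1 library, with 1 at 0. Their part in these results was not tested.

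Cartilage genes were counted as well. The list of 29 cartilage genes, which includes Acan and Hapln1, had 22 tested genes, and against TPM 0 rose and 1 fell in TPMPik3ca (median 0.77), and 1 rose and 2 fell in TPMPik3r1 (median -0.91). The one that rose was Matn2, a matrilin also made outside cartilage (2.57, adjusted p = 0.0269, edgeR), and the homeobox gene Barx2 and the calcium channel gene Trpv4 fell in TPMPik3r1 (-9.38 and -3.28), as Barx2 did in TPMPik3ca (-6.25). In TPK against the mean of both, Barx2 (7.87) and Trpv4 (2.63) were higher, and Matn2 (-1.84) was lower (list median -0.28, Acan among its genes). Col2a1, the collagen that defines cartilage, lay at 0.36 and 3.37 CPM in TPM, 197 and 0.89 in TPMPik3ca, 0.15 and 2.11 in TPMPik3r1, and 0 and 0.07 in TPK. It was therefore high in the TPMPik3ca library with more Acan, and near 0 in the library with the most Acan. Sox9, the chondrocyte master regulator, was at 98.0 and 17.0 CPM in TPMPik3ca and at 9.18 and 20.3 in TPMPik3r1, against 44.3 to 70.4 in TPM and TPK.

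The sum of 8 chondrocyte markers, of 10 listed, was 277 CPM in replicate 1 of TPMPik3ca and 8.44 to 48.0 in the other libraries, with 10.2 in replicate 1 of TPMPik3r1. In replicate 1 of TPMPik3ca 7 of the 8 were over the floor, and in replicate 1 of TPMPik3r1 it was 4, with 3 at 0, among them Col9a1 and Matn1. Markers of gonadal supporting cells were summed too, and here the TPMPik3r1 libraries stood apart, with 946 and 592 CPM against 66.5 to 204 elsewhere. Of the 12 markers, 10 and 9 were over the floor in TPMPik3r1. Most of the sum came from Nr5a1, the steroidogenic factor, at 753 and 148 CPM, and Gata4, at 137 and 183, while Fshr was at 0 in all libraries and Cyp19a1 at 0 in both TPMPik3r1 libraries. Nr5a1 was at 0 to 5.23 CPM and Gata4 at 0 to 11.3 in the 3 other models. Of 9 tested markers, 2 were called higher in TPMPik3r1 than in TPM (edgeR), beside 1.08% of all genes. Outside TPMPik3r1, only replicate 2 of TPMPik3ca had more than 0.51 CPM of Nr5a1. That gene therefore passed the filter on low counts through TPMPik3r1, its level there is a description, and nothing is read from the count of calls. In replicate 1 of TPMPik3r1, Amh (0.74 CPM), Inhbb (21.6), Foxl2 (0.31), Wt1 (1.86) and Amhr2 (5.58) lay within the range of the other models. Sox9 (9.18) lay below that range there, and Inha (15.4) and Dmrt1 (1.12) above it. In replicate 2, Amh, Inha, Inhbb, Foxl2, Wt1 and Amhr2 lay above it.

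The summed levels of fibroblast, macrophage, neutrophil and smooth muscle markers were lowest in the library with the most Acan. Taken one by one, 8 of 10 fibroblast, 6 of 10 macrophage, 9 of 9 neutrophil and 7 of 10 smooth muscle and pericyte markers were lowest there. The sum of 10 fibroblast markers was 936 CPM in replicate 1 of TPMPik3r1 and 2678 to 17573 in the other libraries, that of 10 macrophage markers 386 against 871 to 5545, and that of 9 neutrophil markers 17.2 against 316 to 2571. All 10 fibroblast and 10 macrophage markers were over the floor in every library. Smooth muscle and pericyte markers summed to 168 CPM there and to 356 to 1240 elsewhere. Endothelial markers, at 228 CPM there, were within the 77.7 to 783 of the others, and so were neural and glial markers, at 76.9 against 28.5 to 144. The sum of mesothelial and uterine stromal markers was highest there, at 396 CPM against 135 to 290. Of its 10 markers, only Lrrn4 (58.9 CPM) was itself highest there. Esr1 (142), Hoxa10 (88.7), Nr2f2 (62.9) and Hoxa11 (30.7) made up most of the rest and were each higher in another library, and Pgr (0.31) was lowest there. The part of these cell types in the Acan level was not tested.

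**Figure D4:**
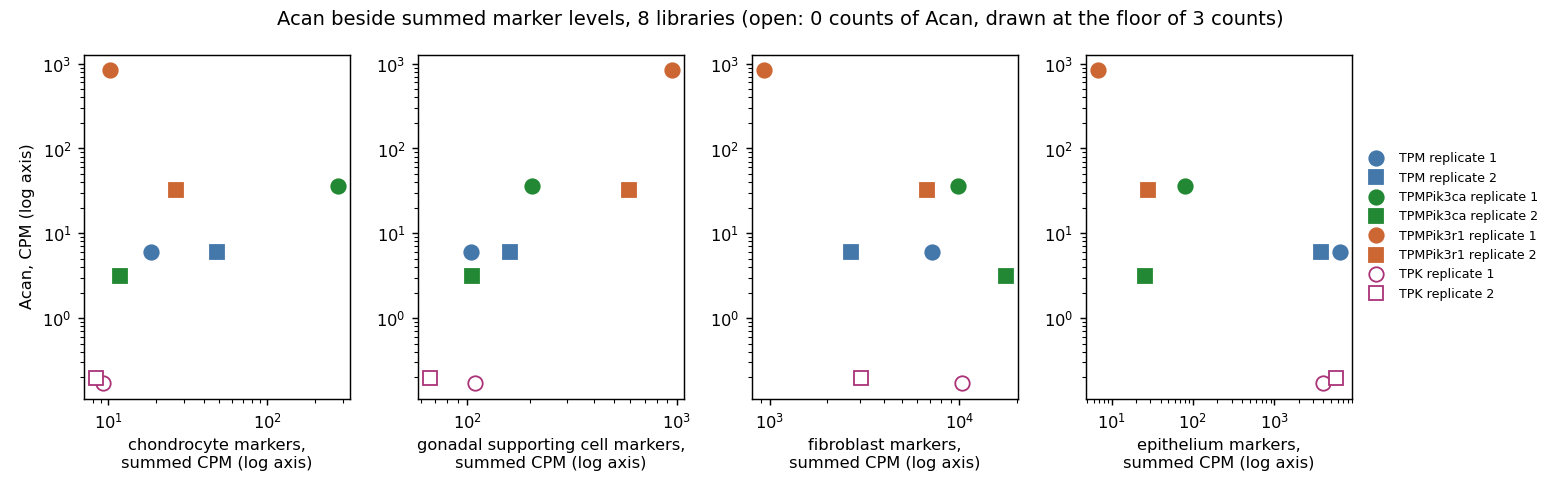
Acan level against the summed level of 4 marker lists in the 8 libraries, all in CPM on log axes, with circles for replicate 1, squares for replicate 2 and open symbols for the TPK libraries with 0 Acan counts, drawn at the floor. Replicate 1 of TPMPik3r1, at 837 CPM of Acan, had 10.2 CPM of chondrocyte and 936 of fibroblast markers, while replicate 1 of TPMPik3ca had 277 CPM of chondrocyte markers.

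By Pearson's r of log2 CPM over the 8 libraries, the genes most like Acan among 12825 ranked were Eif4a1 (0.989) and Elac2 (0.989), followed by Ndufs1 (0.987), Supv3l1 (0.979) and Nvl (0.975). Eif4a1 is an RNA helicase of translation initiation, Elac2 processes tRNA, Ndufs1 is a subunit of respiratory complex I, Supv3l1 a mitochondrial RNA helicase and Nvl an ATPase of ribosome assembly. Their range was far narrower than that of Acan: Eif4a1 went from 941 CPM in TPK to 1464 in replicate 1 of TPMPik3r1, and Ndufs1 from 68.1 to 190.4. These points share depth and library, the highest and lowest being replicate 1 of TPMPik3r1 and TPK, and 2 of the 5 genes stayed among the first 5 by Spearman's rho.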

How the data were processed

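Bulk polyA RNA of 8 libraries from 4 models, 2 per model, was analyzed, with groups taken from the sample labels. The deposited raw counts per gene symbol were made by the authors, who aligned trimmed paired reads to mm10 with STAR. The counter, its annotation and its use of strand are not given in the sources used here. The deposited table normalized by the authors was not used here. The heading of the TPM columns reads TPMS and was matched to the TPM titles. Of the gene symbols, 25 read as dates.

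Counts were normalized by TMM, filtered by filterByExpr (15875 of 24419 genes left) and fitted in one quasi-likelihood model of all 8 libraries in edgeR 4.0.16 (R 4.3.3), with Benjamini-Hochberg adjustment over all genes tested and a call at an adjusted p under 0.05. The study used DESeq2, run here as an alternative (version 1.42.0), with the study's call rule (p under 0.05 before adjustment, and over 1 on the log2 scale) as another. The script was tested on simulated data with known changes. Depth was 15748396 to 26943611 counts. With 2 libraries per model an exact permutation test cannot reach 0.05 in the 5 comparisons between models. None was run there or over the 4 models, and p-values measure the spread between these libraries. Replicate numbers did not pair the libraries (correlations of deviations between models -0.07 to -0.01).

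The members and lists were chosen with earlier results of these data known. Named were all members, the genes of each list called with the largest changes and the most abundant, and the 5 genes with the highest correlation to Acan (prior count 2, mean log2 CPM of at least 1). Has1, Hapln2 and Hapln4, Adamts1, Dag1, Sox9, Col2a1 and single markers were named after their values were seen. Alternatives were other scalings, filters and samples in the fit, a replicate block, DESeq2 and leaving out each library, and, added after seeing the data, the calls of list genes and epithelial markers without a TPMPik3r1 library. Some engineered alterations and genes are not reported here. Promoter windows were from RefSeq and gene positions from GENCODE M21.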

Additional observations from a re-analysis of the deposited data

How the results depend on the processing

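Among the 8 tested genes other than Acan, the number called in TPMPik3ca against TPM was 1, but 4 when only those models were fitted, 3 with DESeq2, 4 at the study's thresholds and 0 to 3 when 1 library was left out (0 without either library of TPM, TPMPik3ca or TPK, and 3 without either of TPMPik3r1). In TPMPik3r1 against TPM it was 0, but 4 with DESeq2, 4 at the study's thresholds and 0 to 1 without 1 library (Has3 without replicate 1 and Cd44 without replicate 2 of TPMPik3r1). Bcan, which passed the filter only through TPMPik3r1, is 1 of each 4. In TPK against TPM it was 0, but 1 with DESeq2 and 1 at the study's thresholds, and 0 without any 1 library. In TPMPik3r1 against TPMPik3ca it was 0, but 1 with DESeq2, 2 at the study's thresholds (Bcan is 1 of these) and 0 to 3 without 1 library (3, Vcan, Hapln1 and Cd44, without replicate 2 of TPMPik3r1). In TPK against the mean of both it was 3, and 1 to 5 without 1 library (1 without replicate 2 of TPK or either library of TPMPik3ca, 5 without either of TPMPik3r1). Over the 4 models it was 1, but 2 with no filter beyond 1 count, 5 with DESeq2 (Bcan is 1 of these) and 0 to 6 without 1 library (0 without either library of TPK, 3 without replicate 1 and 6 without replicate 2 of TPMPik3r1). Where a model was left with 1 library, that library was assumed to vary like the others. The number of all genes called moved with the settings as well, over the ranges given below. DESeq2 called 17.5% of all genes in TPMPik3r1 against TPM, 1.52% in TPK against TPM and 4.86% in TPMPik3r1 against TPMPik3ca. Nothing is therefore read from these counts of members. The causes were not tested.

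With the replicate block, the members called were 1 in TPMPik3ca against TPM, 2 in TPK against the mean of both (Hspg2 was lost) and 1 over the 4 models, and 0 elsewhere. The libraries shared only a number, and genes called fell from 553 to 362, from 886 to 557 and, over the 4 models, from 1162 to 631.

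All genes called in TPMPik3ca against TPM ranged from 38 (without replicate 1 of TPMPik3ca) to 3007 (study's thresholds), in TPMPik3r1 against TPM from 53 (only those models) to 3192, in TPK against TPM from 0 to 838, in TPMPik3r1 against TPMPik3ca from 0 to 1670, in TPK against the mean of both from 541 to 4487 (main 2287) and over the 4 models from 169 to 4783.

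Log2 fold changes that changed sign did so when 1 library was left out, and none had been called. Their ranges were -0.91 to 2.57 for Acan and -3.24 to 2.14 for Bcan in TPMPik3ca against TPM. For TPMPik3r1 over TPM they were -1.61 to 1.22 for Vcan, -2.48 to 1.45 for Hapln1 and -1.50 to 0.0058 for Hapln3. In TPK against TPM they were -0.70 to 0.78 for Vcan and -1.78 to 0.77 for Hapln3. In TPMPik3r1 against TPMPik3ca they were -0.16 to 1.34 for Hapln3 and -1.20 to 0.31 for Hspg2, and in TPK against the mean of both -0.82 to 1.71 for Hapln3. Without TMM factors, the median of all genes moved by -0.12 in both TPK comparisons, and no member was reversed. Depth limited Ncan, Bcan, Hapln1 and Hapln3, which had few counts.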
